A study of Mus musculus with 6 samples.

Results

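The regions described here are gene ends that carried a peak of H3K4me3, trimethylation of lysine 4 of histone H3, in every library of the series. Peaks of the 4 deposited lists that overlapped by at least 1 bp on chromosomes 1 to 19 and X were merged into 24104 regions. Of these, 2796 held a peak from each of the 4 lists, and 2262 of them lay within 1 kb of the annotated start or end of a protein-coding gene. These 2262 constant regions were 9.38% of all regions, 14.1% of the 16011 regions at gene ends and 80.9% of the regions in all 4 lists. They lay at 2560 of 21631 protein-coding genes (11.8%). Throughout, a gene or start is called marked in a number of lists by the most lists joined in any single merged region within 1 kb of it, whether or not each library's own peak reaches that distance. A gene in fewer than 4 lists can thus still have a peak near an end in every library, where the peaks do not overlap. Presence of peaks chose the regions, so presence is given as a description and is not tested.

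The cells were Lgr5+ progenitors sorted by GFP from cultured cochleae of Lgr5-EGFP-creERT2 mice on a C57BL/6 background, taken at postnatal days 0 to 3 and of either sex. EGFP and creERT2 in these mice are driven from the Lgr5 locus, and every group carried that allele. No Cre-dependent allele and no tamoxifen are named in the labels. The neomycin group was exposed to neomycin for 12 h and the untreated group was not, with 2 H3K4me3 libraries each; 1 input library per group was not analysed here. The labels speak of mice in the plural for each sample and name no separate cultures behind the replicates, so the spread within a group may be technical. One caution applies to every comparison between the groups. H3K4me2 stands in the names under which the untreated lists were deposited, whereas the labels give H3K4me3 and the same antibody for all 4 libraries, so the mark in the untreated lists is uncertain.

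H3K4me3 is deposited by SET1 and MLL methyltransferase complexes around the starts of active genes and of many poised developmental genes. CpG-rich promoters recruit these complexes through proteins that bind unmethylated CpG. In the neonatal cochlea, Lgr5 marks supporting cells that can divide and form hair cells, and Wnt signalling, for which Lgr5 is a receptor component, promotes both. Neomycin is an aminoglycoside antibiotic that kills hair cells.

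Member starts were CpG-rich. Promoter sequences of RefSeq (GRCm38.p6) were matched to 1921 genes whose start lay at a constant region. The bases before the start are shown for genes of the cochlear lists, to show the CpG content that set constant starts apart from unmarked ones. Each sequence below is the 250 bases before the annotated start, 5′ to 3′ in the direction of the gene, and capitals mark CG. Jag1 (chr2:137116521-137116770 (minus strand)) and Notch1 (chr2:26503823-26504072 (minus strand)) encode a Notch ligand and receptor. Prox1 (chr1:190170828-190171077 (minus strand)) encodes a homeodomain factor of supporting cells. Cdkn1b (chr6:134920151-134920400 (plus strand)) encodes the cell cycle inhibitor p27Kip1. Lgr4 (chr2:109917397-109917646 (plus strand)) encodes a relative of Lgr5. Slc1a3 (chr15:8710808-8711057 (minus strand)), which encodes the glutamate transporter GLAST, and the olfactory receptor gene Olfr94 (chr17:37197967-37198216 (minus strand)) are shown as the CG-poor exceptions.
Jag1: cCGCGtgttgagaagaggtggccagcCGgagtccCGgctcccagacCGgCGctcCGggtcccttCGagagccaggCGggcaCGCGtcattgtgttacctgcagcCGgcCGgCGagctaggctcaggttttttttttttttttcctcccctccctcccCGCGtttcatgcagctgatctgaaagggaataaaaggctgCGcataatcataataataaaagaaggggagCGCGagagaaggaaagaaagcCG
Notch1: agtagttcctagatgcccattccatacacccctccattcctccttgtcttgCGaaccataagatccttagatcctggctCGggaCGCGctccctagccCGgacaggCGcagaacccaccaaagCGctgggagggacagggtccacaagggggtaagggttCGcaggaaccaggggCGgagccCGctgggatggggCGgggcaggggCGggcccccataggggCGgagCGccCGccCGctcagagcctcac
Prox1: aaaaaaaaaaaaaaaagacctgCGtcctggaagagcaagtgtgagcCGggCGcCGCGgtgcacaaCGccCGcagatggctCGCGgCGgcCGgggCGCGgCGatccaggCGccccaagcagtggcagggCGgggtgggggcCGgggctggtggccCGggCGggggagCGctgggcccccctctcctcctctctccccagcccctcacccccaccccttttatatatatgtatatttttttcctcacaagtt
Cdkn1b: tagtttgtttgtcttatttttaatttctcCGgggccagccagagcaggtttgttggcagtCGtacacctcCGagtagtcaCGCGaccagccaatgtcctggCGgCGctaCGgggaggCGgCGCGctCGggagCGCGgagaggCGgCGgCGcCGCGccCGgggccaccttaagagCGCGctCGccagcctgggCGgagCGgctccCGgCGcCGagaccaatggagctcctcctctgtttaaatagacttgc
Lgr4: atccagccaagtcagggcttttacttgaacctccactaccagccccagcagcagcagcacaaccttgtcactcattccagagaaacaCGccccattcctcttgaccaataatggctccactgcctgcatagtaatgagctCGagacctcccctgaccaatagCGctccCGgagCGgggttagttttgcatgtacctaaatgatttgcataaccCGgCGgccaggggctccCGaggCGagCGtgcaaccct
Slc1a3: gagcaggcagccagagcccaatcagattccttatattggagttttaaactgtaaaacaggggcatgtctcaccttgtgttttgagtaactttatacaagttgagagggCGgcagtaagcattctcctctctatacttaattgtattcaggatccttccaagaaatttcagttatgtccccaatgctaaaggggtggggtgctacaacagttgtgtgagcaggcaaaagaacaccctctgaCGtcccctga
Olfr94: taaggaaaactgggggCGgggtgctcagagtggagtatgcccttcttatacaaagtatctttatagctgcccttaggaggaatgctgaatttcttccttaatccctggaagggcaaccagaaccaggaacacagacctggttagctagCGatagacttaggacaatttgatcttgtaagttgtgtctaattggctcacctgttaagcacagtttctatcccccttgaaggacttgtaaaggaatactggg
The Cdkn1b stretch held 28 CG, Jag1 and Prox1 20 each, Notch1 16 and Lgr4 10. Slc1a3 and Olfr94 held 2 each.

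Across genes, CpG observed over expected was taken in a window of 300 bp, from 250 bp before the start to 50 bp after it. Its median was 0.829 at the 1921 constant starts and 0.207 at the 6970 starts marked in no list. The median over all 15534 promoters was 0.594. Constant starts were close to those marked in 3 lists (0.826), and starts in 1 and 2 lists had medians of 0.712 and 0.789. Of the constant starts 86.9% lay above 0.6, against 49.5% of all promoters. Read the other way, 0.493% of starts in the lowest bin of CpG content were constant, and the share rose over the bins to 25.4% in the highest. Slc1a3 (0.197) and Olfr94 (0.199) were among 17 constant starts in that lowest bin. These genes share windows and base composition, and no test was made.

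**Figure D1:**
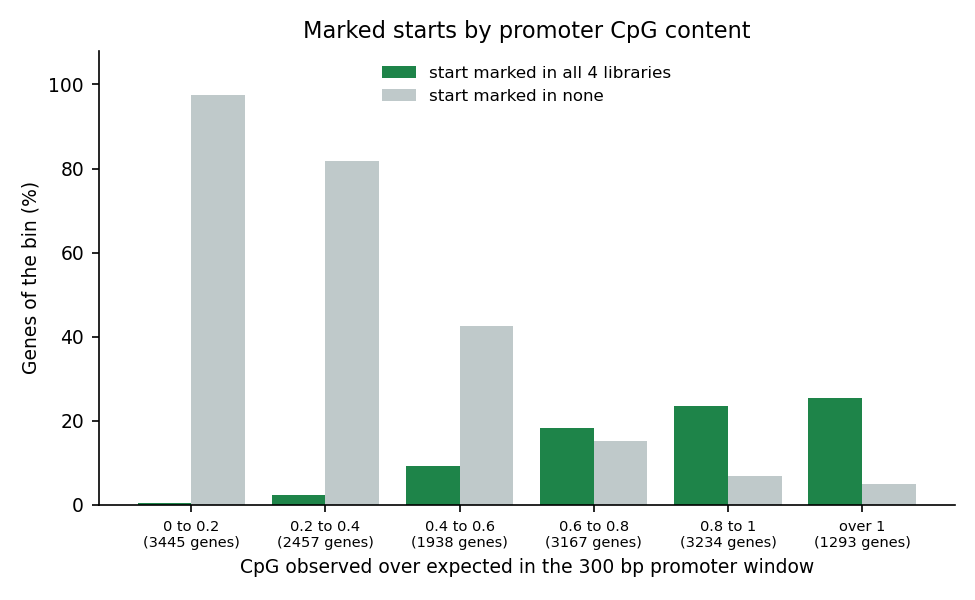
Share of genes (y axis, %) whose annotated start was marked in all 4 libraries (green) or in none (grey), by CpG observed over expected of the 300 bp promoter window (x axis, bins with their number of genes). The green bars rise from 0.493% to 25.4% while the grey bars fall from 97.6% to 5.03%.

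Short motifs were counted in the same window on either strand. GGGCGG, the GC box bound by Sp and Klf factors, was present in 73.5% of constant starts and 47.4% of all promoters. CCGGAAG, an ETS-type motif, was present in 19.4% against 12.2%. TATAAA, the core promoter element bound by TBP, was present in 5.83% against 13.8%. The E-box CACGTG was found in 11.2% against 8.11%, the palindromic NRF1 motif in 2.5% against 1.44%, and the YY1-type motif AAGATGGCG in 3.70% against 2.01%. CCAAT was the motif that differed least in proportion, in 36.4% against 39.8%. The shares at starts in 3 lists were near those of constant starts, with GGGCGG in 73.1% and TATAAA in 5.21%. A letter match is not a binding site, and motifs of G and C follow the CpG content given above.

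The constant regions lay almost all at starts. The promoter table gives the strand of 17274 genes, and 1826 regions had at least 1 such gene. Of these regions 1810 (99.1%) lay at an annotated start and 16 at an end alone. The share at a start was 96.6%, 98.1% and 98.9% for gene-end regions in 1, 2 and 3 lists. Genes with strand had a constant region at their start in 1995 cases (11.5%). In all, 1919 regions had 1 gene, 341 had 2 and 2 had 3. Head-to-head pairs, in which starts of opposite strands share a region, made up 214 of the 1826 (11.7%), the same share as at regions in 1 list (11.7%). The regions were short, with a median width of 614 bp (quartiles 461 and 813, range 234 to 2626). An annotated gene end was touched by 492 regions (21.8%). Closest to the 1 kb limit lay Rxra at 998 bp inside it, and 1700025G04Rik and Gm3739 at 1001 bp outside it.

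The mark lay on the downstream side of the start. At 1508 regions that could be oriented, the highest summit lay a median of 275 bp and 259.5 bp into the gene in neomycin replicates 1 and 2, and 226 bp and 245 bp in untreated replicates 1 and 2. Summits were downstream of the start in 88.5%, 88.3%, 87.9% and 87.9% of regions in the same order. Cover by peaks was also taken over the starts of 1487 genes. For each gene the annotated start nearest the middle of its constant region was used, so the choice of start depended on the peaks. Cover was greatest between 150 and 225 bp downstream. At that position 23.3% and 42.4% of genes were under a neomycin peak, and 83.1% and 76.4% under an untreated peak. At the start itself the shares were 5.25%, 8.0%, 23.4% and 26.8%. A lower shoulder lay upstream in both neomycin libraries and in untreated replicate 1, at 4.84%, 9.15% and 19.2%. Untreated replicate 2 had no separate shoulder, and its cover rose from 15.1% at 150 bp upstream to its value at the start. The height of these curves follows the length of the called peaks, which differed between libraries and is described below. Separate regions were also seen at single genes: 47 genes had 2 or more constant regions, and of the 38 with strand 21 had them on both sides of the start.

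**Figure D2:**
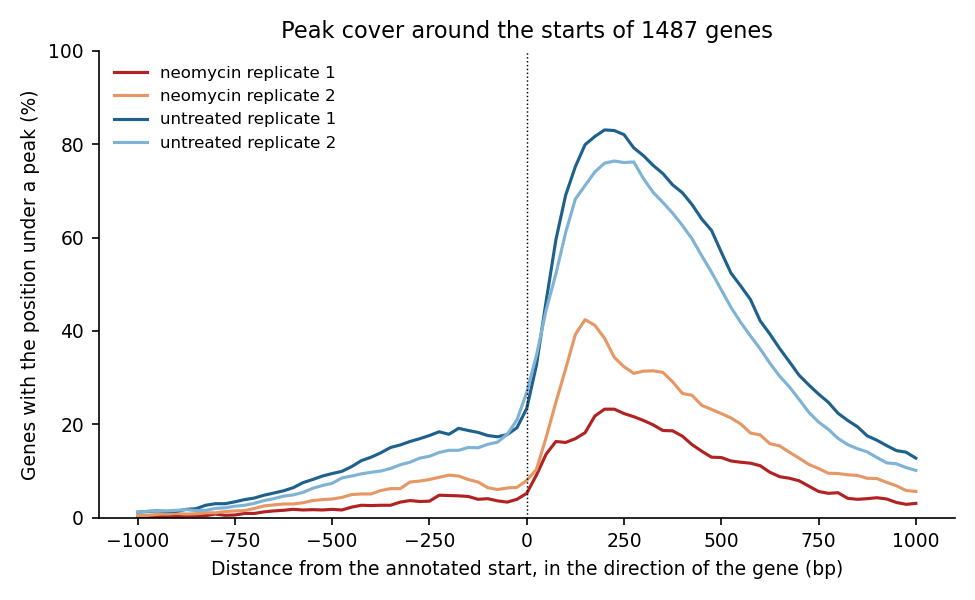
Share of 1487 genes with a constant region at their start (y axis, %) in which a position lies under a peak, against distance from the annotated start in the direction of the gene (x axis, bp), for each library. Of the annotated starts of a gene, the start nearest the middle of its constant region was used. All 4 curves are highest between 150 and 225 bp downstream, and the untreated curves lie above the neomycin curves there.

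Functions at the constant regions ranged from Wnt signalling to general cell maintenance, while several families of tissue-restricted genes were nearly absent. Counts were made over 38 families defined by gene symbols and 12 lists of cochlear cell types and pathways, and each is read against the 11.8% of all protein-coding genes at constant regions. The share was above 11.8% in 27 of the 38 families. That background includes 1110 olfactory receptor genes, of which 4 were marked in any list. Among genes marked in at least 1 list, 22.2% of all genes were constant. The families and lists hold 429 of the 2560 genes (16.8%), so most constant genes belong to none of them. The lists were chosen with earlier results of these data known, so their shares are descriptions.

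**Figure D3:**
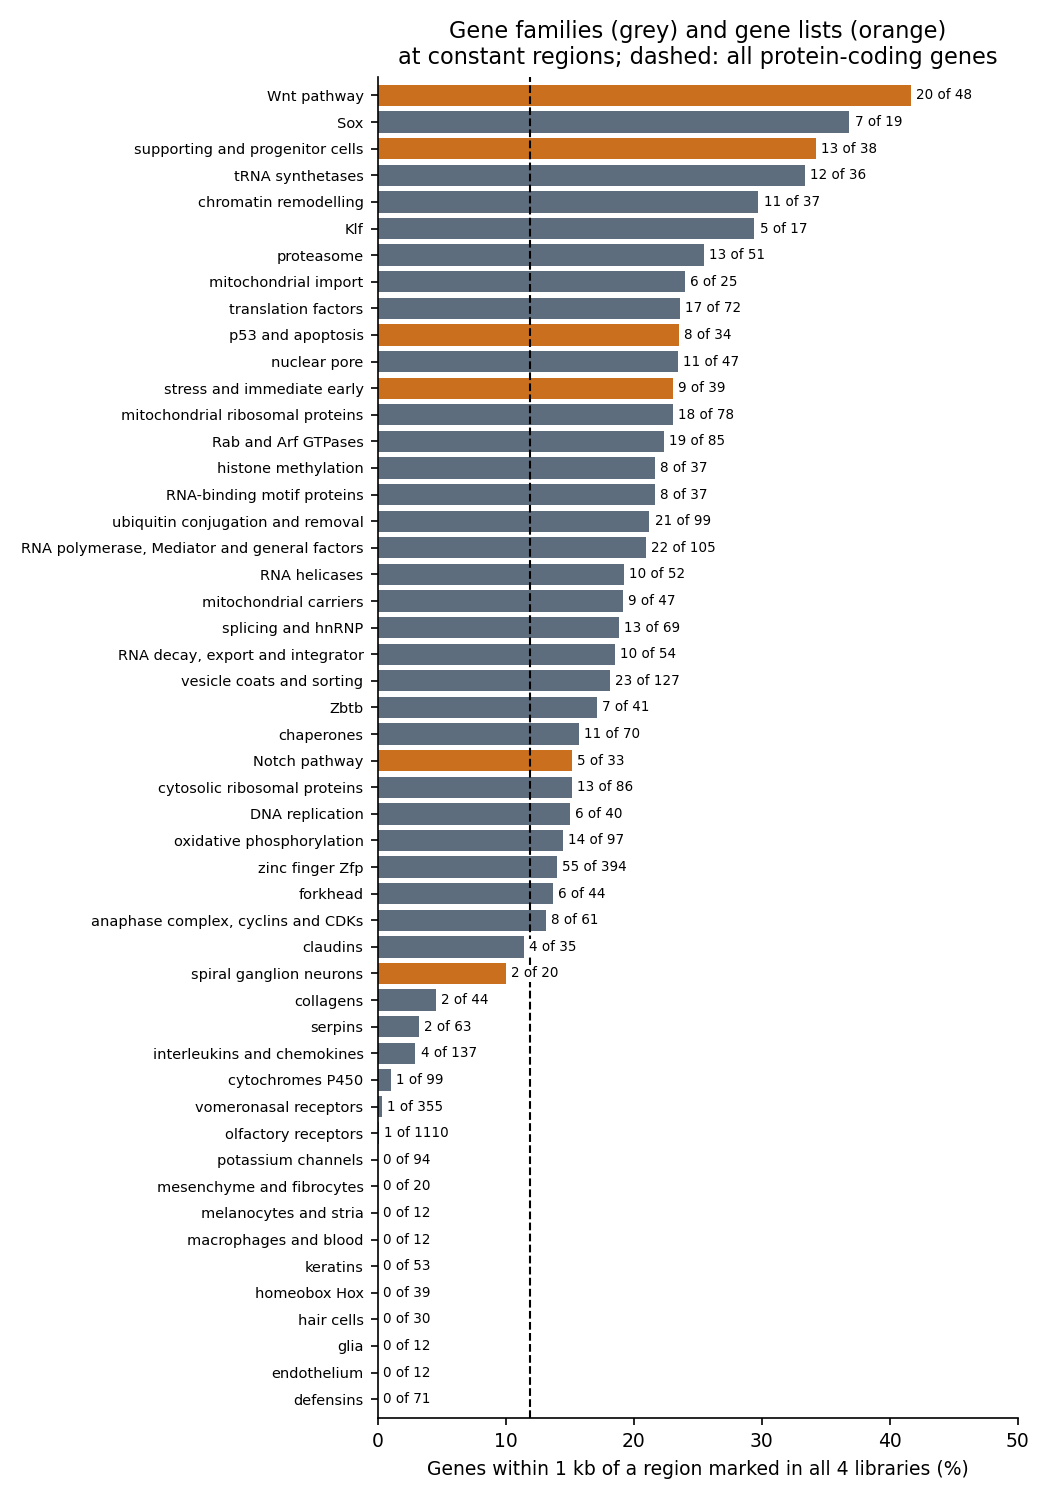
Share of each gene family (grey) or gene list (orange) that lies at a constant region (x axis, %), with the number of genes beside each bar and a dashed line at 11.8%, the share of all protein-coding genes. The Wnt pathway list is highest here with 20 of 48, a place it did not hold with any library left out or with starts alone, and 10 families and lists lie at 0.

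The Wnt pathway list had 20 of 48 genes at constant regions (41.7%), the highest share with all 4 libraries and both gene ends. A further 6 of its genes were marked in 3 lists, 7 in 2, 8 in 1 and 7 in none. With 1 library left out and regions required in the other 3 lists, the Wnt share was 45.8% against 17.7% of all genes without neomycin replicate 1 and 43.8% against 18.6% without neomycin replicate 2. It was 27.1% against 11.0% without untreated replicate 1 and 37.5% against 14.6% without untreated replicate 2. In each of these settings another set stood above it: Sox genes with 47.4%, supporting cell genes with 50%, tRNA synthetases with 33.3% and supporting cell genes with 39.5%, in the same order. With annotated starts alone Sox genes had 46.2% and the Wnt list 35.7%. Among genes marked in at least 1 list, 48.8% of the Wnt list and 22.2% of all genes were constant. By role, which was sorted after the values were seen, the Frizzled receptors had the most constant genes, Fzd2, Fzd3, Fzd4, Fzd6 and Fzd7. These were 5 of 10, and 9 of 10 Frizzled genes were marked in 3 or 4 lists. By share the Dishevelled genes stood higher, with 2 of 3 constant. The co-receptor gene Lrp6 was constant and Lrp5 was in 3 lists. The receptors Lgr4 and Lgr5, the ligand Rspo2 and the ligase Znrf3, which together set the amount of Frizzled at the cell surface, were 4 constant genes of 8 in that role. Inside the cell, Dvl2, Dvl3, Gsk3a and Gsk3b were constant, as were the nuclear factors Tcf7l1, Tcf7l2, Bcl9l and Pygo1 and the secreted inhibitor Sfrp1. Ctnnb1, which encodes beta-catenin, was marked in 2 lists. None of the 5 target genes Axin2, Sp5, Ccnd1, Myc and Notum was constant. Myc still had a peak within 1 kb of a gene end in each of the 4 libraries, but no merged region there joined more than 2 lists.

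The Wnt member Wls, which encodes the carrier that brings Wnt proteins to the cell surface, was apart from the other 19 in pileup. Its constant region (chr3:159939343-159939794) lay 677 bp beyond the 3′ end of the gene. Its pileup, the height of stacked fragments at the summit as the authors' caller gave it, was 56 and 117 with neomycin and 118 and 90 without. The other Wnt members had pileups of 6 to 19.

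Lgr5 itself, the gene that defines the sorted cells, was constant. Its region (chr10:115587297-115588065) touched a gene end. Peaks covered 180 and 111 bp with neomycin and 502 and 311 bp without, so that both neomycin lengths were below both untreated ones. That order held at 1970 of the 2262 constant regions and at 86.8% of the 2796 regions in all 4 lists, since untreated peaks were longer in general. The opposite order held at 2 constant regions and 0.107% of the 2796. Pileups there were low, at 7, 10, 13 and 7. Fzd7 varied most among the receptors, with 144 and 687 bp with neomycin and 1594 and 234 bp without, so that the groups overlapped. Dvl3, a scaffold of Wnt signalling, had the highest median pileup rank of the Wnt members after Wls, with pileups of 9, 11, 18 and 15 and covered lengths of 96, 254, 692 and 522 bp.

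The supporting and progenitor cell list had 13 of 38 genes at constant regions (34.2%), and 10 more were in 3 lists. It shares 5 genes with the Wnt list, of which Lgr4 and Lgr5 were constant. The constant genes included the Notch pathway genes Jag1 and Notch1, the transcription regulators Sox9, Prox1 and Id1, the receptor gene Fgfr3, the cell cycle inhibitor gene Cdkn1b, the Wnt antagonist gene Frzb, the connexin gene Gjb2, the cadherin gene Cdh1 and Slc1a3. Sox2, Hes5 and Hey1 were among those in 3 lists. All of them nevertheless had a peak within 1 kb of a gene end in each of the 4 libraries, and these peaks were not joined in a single merged region. Of the 21 genes of the cochlea and of general reference fixed for naming, 7 were constant. The reference genes are given by library and not by merged region. Gapdh had peaks within 1 kb of an end in 2 libraries, and Actb and Hprt in 1 each.

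At Notch1 (chr2:26502700-26503802) peaks covered 89 and 272 bp with neomycin and 841 and 843 bp without, with pileups of 7, 13, 17 and 15. At Sox9 (chr11:112782290-112783103) the covered lengths were 84 and 307 bp with neomycin and 507 and 621 bp without. At Prox1 (chr1:190170177-190171069) they were 151 and 290 bp against 560 and 607 bp. The untreated libraries were longer at all 3 genes, as they were over constant regions in general. At Cdkn1b (chr6:134920697-134921446) lengths were 60 and 271 bp with neomycin and 602 and 610 bp without, and at Fgfr3 (chr5:33722456-33723143) 154 and 196 bp against 428 and 278 bp. Jag1 had 2 separate regions, chr2:137115041-137115836 and chr2:137115898-137116402. Their covered lengths were 96, 120, 796 and 304 bp for the first and 67, 272, 392 and 329 bp for the second, in the order neomycin replicates 1 and 2 and untreated replicates 1 and 2.

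**Figure D4:**
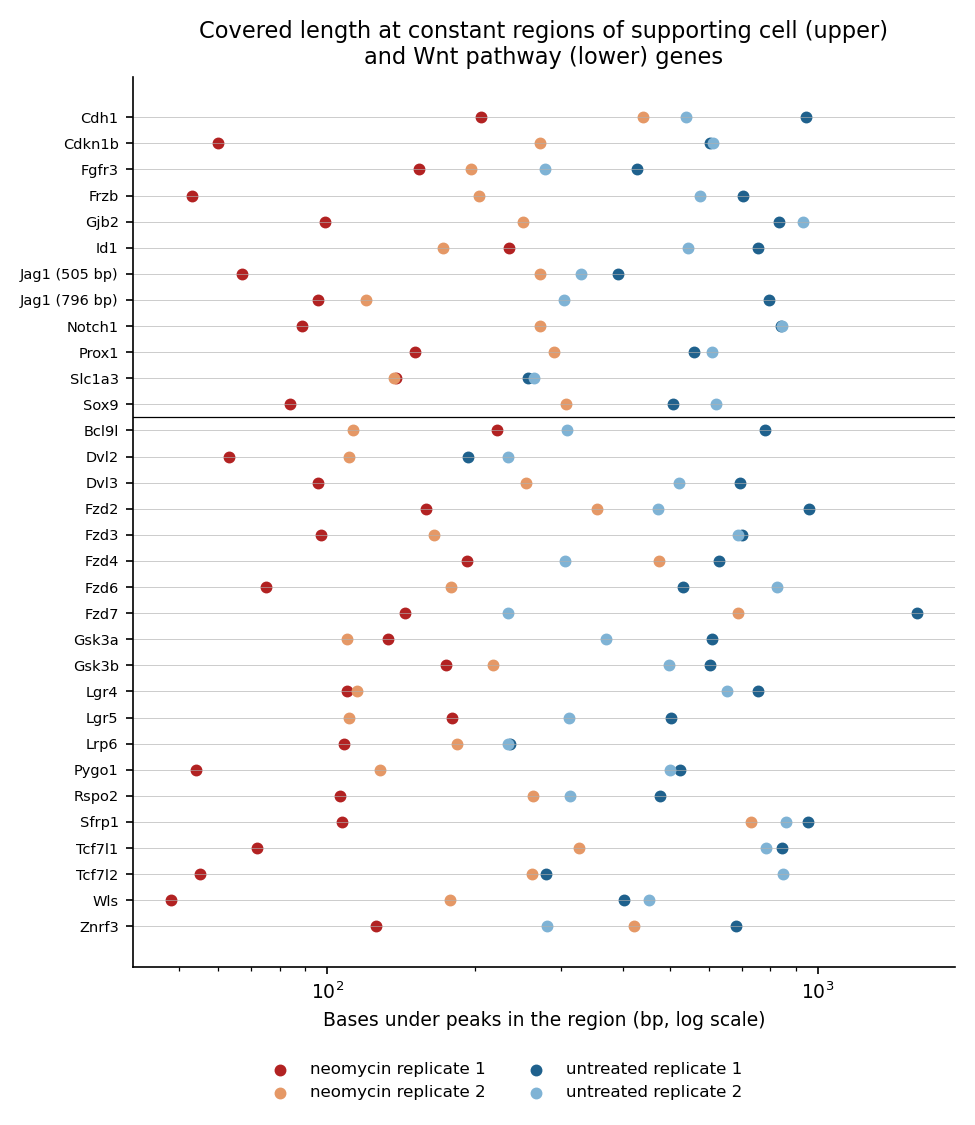
Bases under peaks (x axis, bp, log scale) at the constant regions of genes of the supporting cell list (above the line) and the Wnt list (below it, including Lgr4 and Lgr5, which are in both), with a point for each library and Jag1 shown as 2 regions told apart by width. Neomycin replicate 1 is lowest at most genes, and Wls has the lowest value, 48 bp.

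Most lists of other cochlear cells had no constant gene. Of 30 hair cell genes, 13 were marked in at least 1 list and none was constant. Atoh1 and Pou4f3, which drive hair cell fate, were each in 2 lists. None of the genes of glia (12), endothelium (12), macrophages and blood (12), melanocytes and stria (12) or mesenchyme and fibrocytes (20) was constant. The macrophage and blood list had no gene in any peak list, while 6 of the 12 glial genes were marked in at least 1 list and Sox10, Mbp, Cnp and Erbb3 in 3. Marked in at least 1 list were also 7 of 12 melanocyte and stria genes, 3 of 12 endothelial genes and 7 of 20 mesenchyme and fibrocyte genes. Of all genes marked in at least 1 list, 22.2% were constant. Of 20 spiral ganglion genes, Nefm and Pou4f1 were constant, and this 10% was near the 11.8% of all genes. A mark in few of the sorted cells and a weak mark in all of them cannot be told apart in these libraries.

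Among transcription factor families, 7 of 19 Sox genes (36.8%) were constant: Sox4, Sox5, Sox9, Sox11, Sox12, Sox13 and Sox21. Sox21 had the longest median cover over the 4 libraries of any constant region, 363 and 771 bp with neomycin and 2511 and 2328 bp without, over a region 2626 bp wide. Sox4, a factor of immature and progenitor cells, had the highest median pileup rank of the family, with pileups of 10, 11, 19 and 15. Klf genes were constant in 5 of 17 cases (29.4%), Klf3, Klf4, Klf5, Klf12 and Klf13. Zfp genes (55 of 394, 14%) and forkhead genes (6 of 44, 13.6%) lay near the share of all genes. None of 39 Hox genes was constant and 2 were marked in any list.

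Families of general cell machinery were well represented against all genes, but unevenly among marked genes. Those for transcription, translation and protein breakdown stood above 11.8%: 12 of 36 tRNA synthetase genes (33.3%), 13 of 51 proteasome genes (25.5%), 17 of 72 translation factors (23.6%), 18 of 78 mitochondrial ribosomal proteins (23.1%) and 22 of 105 genes of RNA polymerases, Mediator and general factors (21%). The cytosolic ribosome was lower, at 13 of 86 (15.1%), although 76 of its genes were marked in at least 1 list. Oxidative phosphorylation was similar, at 14 of 97 (14.4%) with 80 marked. Over marked genes alone, these last families had 17.1% and 17.5% constant, below the 22.2% of all marked genes. On that scale RNA polymerases, Mediator and general factors had 24.2%, near the 22.2%, while translation factors had 26.6%, proteasome genes 30.2% and tRNA synthetases 36.4%. With annotated starts alone the tRNA synthetases fell to 6 of 26 (23.1%), below the proteasome genes with 12 of 43 (27.9%). Of all genes with strand 11.5% had a constant start. Chromatin genes included 11 of 37 remodellers (29.7%), among them Chd4, Chd6, Arid2, Ino80 and Smarca2, and 8 of 37 histone methylation genes (21.6%), among them Setd1a, which encodes an H3K4 methyltransferase.

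Some genes of the damage response were marked in all libraries, treated or not. The p53 and apoptosis list had 8 of 34 genes constant (23.5%, against 11.8% of all genes), including the stress response genes Gadd45a, Gadd45g and Sesn2 and the apoptosome gene Apaf1. The stress and immediate early list had 9 of 39 (23.1%), including Jun, Junb, Fosb, Hsf1, Xbp1 and the superoxide dismutase genes Sod1 and Sod2. Over marked genes alone the p53 list had 32% constant. The stress list had 25%, near the 22.2% of all marked genes. At Gadd45a (chr6:67036634-67037283) peaks covered 163 and 136 bp with neomycin and 648 and 475 bp without. The Notch list, with 5 of 33 (15.2%), was nearer to the background and, over its 30 marked genes, at 16.7% against 22.2%.

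Several families of tissue-restricted genes were at the other end. None of 94 potassium channel genes was constant, although 47 were marked in at least 1 list, 14 of them in 3. With regions required in 3 lists, 5.32% were reached without neomycin replicate 1, against 17.7% of all genes. The share was 6.38% against 18.6% without neomycin replicate 2 and 3.19% against 14.6% without untreated replicate 2. Without untreated replicate 1 it stayed at 0%, against 11.0% of all genes. Claudins, proteins of epithelial tight junctions, differed from these families, with 4 of 35 constant (11.4%), near the 11.8% of all genes. None of 53 keratin genes and none of 71 defensin genes was constant. Of 1110 olfactory receptor genes 1 was constant, Olfr94, in a region (chr17:37197080-37197582) within 1 kb of its end and its start. Vmn2r29 among 355 vomeronasal receptors and Cyp51 among 99 cytochrome P450 genes were the members of those families. Cyp51 encodes a sterol demethylase of cholesterol synthesis used by most cells, unlike the drug-metabolising P450 enzymes.

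No constant region lay at a gene of chromosome X, out of 966 genes. Chromosome X genes were marked in at least 1 list in 151 cases (15.6%), against 55.0% of autosomal genes, and 3 were marked in 3 lists. The neomycin lists held 155 and 41 peaks on chromosome X, and the untreated lists 226 and 116. Over the autosomes the share of genes at constant regions ran from 8.47% on chromosome 7 to 15.8% on chromosome 12. The mice were of either sex, and the part of sex or of filtering of reads in the low count on chromosome X was not tested.

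Constancy did not mean height of pileup. The highest pileup in each region was ranked among all peaks of the same list, where percentile 100 is the highest peak. The median constant region stood at percentile 42.1 and 51.4 in neomycin replicates 1 and 2, and at 66.7 and 65.2 in untreated replicates 1 and 2. Above percentile 75 lay 22.2%, 26.2%, 47.7% and 38.7% of the regions in the same order. Only 45 of 2262 regions were above percentile 75 in every list and 64 were at or below percentile 50 in every list. The lists differ in length, so these ranks show no change between groups. Ranks within the set were weakly related between lists. Across the 2262 regions Spearman's rho of the ranks was 0.279 between the untreated libraries and 0.044 to 0.087 between the other pairs. Pileups are small whole numbers with many ties. The median in constant regions was 7, 11, 15 and 12. In neomycin replicate 1, 27.4% of peaks had a pileup of 7, which was also the median of that list, so 42.1 is the rank of this tie. Ranked by fold enrichment, the median constant region stood at percentile 58.1, 62.1, 71.2 and 66.5, and by −log10 q at 53, 57.9, 71.7 and 61.5. By these 2 scores it was thus above percentile 50 in every list.

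Ranks by list made the same point for gene groups. Median percentiles over the 4 libraries were 59.0 for all constant regions, 57.9 for the 20 Wnt regions and 55.7 for the 14 supporting cell regions. Sox regions reached 71.8 and chromatin remodellers 70.2, while Klf regions stood at 38.0 and the p53 list at 44.8.

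Of the 10 regions with the highest pileup ranks, 5 had little enrichment over the local background. Ordered by median pileup percentile the first 10 were Wls, Lars2, 1600014C10Rik, LOC100504180, Duxf3, Sfi1, Zfp978, Gm40469, Hjurp and H2-D1. Lars2, which encodes the mitochondrial leucyl-tRNA synthetase, had pileups of 35, 50, 53 and 45 at a region (chr9:123461753-123462217) 458 bp inside its 3′ end. Fold enrichment at Lars2, again the authors' value per peak, was 3.83, 2.61, 3.82 and 5.23, which put it at a median percentile of 2.98 by fold against 98.1 by pileup. Wls stood at 99.1 by pileup and 0.788 by fold, the lowest fold rank of all 2262. LOC100504180 and Duxf3 at neighbouring regions of chromosome 10 and Sfi1 on chromosome 11 were also under percentile 6 by fold. Of the 27 regions above percentile 90 by pileup, 5 were under percentile 25 by fold, against 74 of 2262 in the whole set. Duxf3 and several Zfp, Gm and LOC genes have near-identical copies, so the assignment of reads to these places is uncertain. The other 5 stood in the middle or higher by fold, at percentile 38.1 for 1600014C10Rik, 53 for Gm40469, 55.6 for Zfp978, 58.3 for Hjurp, which encodes the chaperone of the centromeric histone, and 70.5 for the histocompatibility gene H2-D1.

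**Figure D5:**
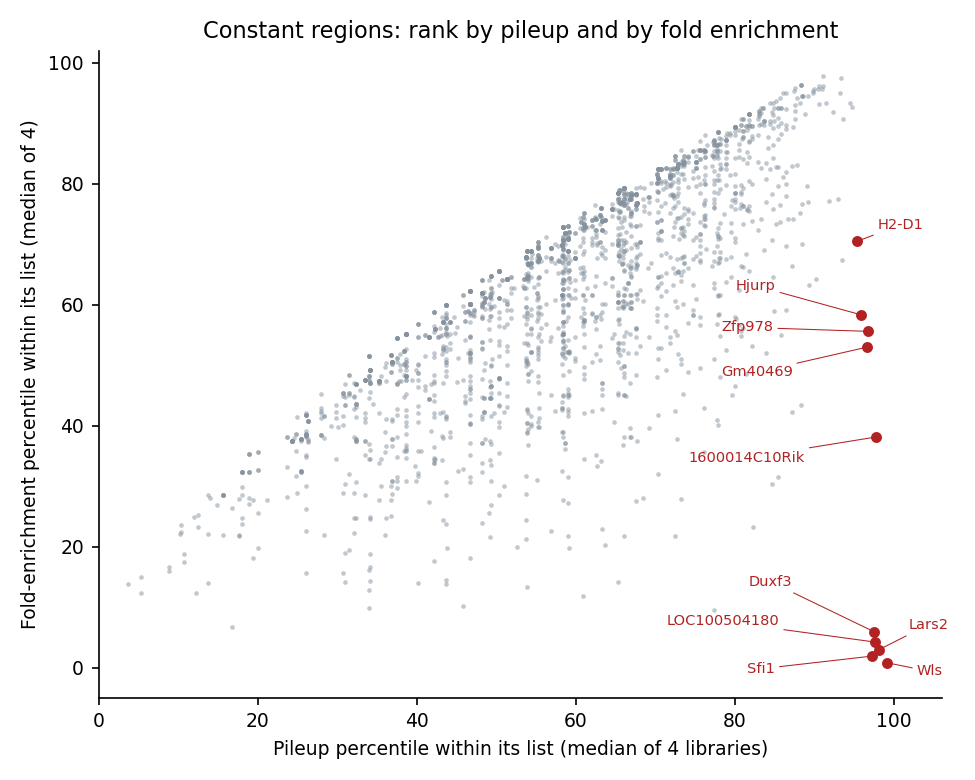
Median fold-enrichment percentile (y axis) against median pileup percentile (x axis) of each constant region, each ranked within its own list and taken as the median of 4 libraries, with the 10 regions of highest pileup in red. Wls, Lars2, LOC100504180, Duxf3 and Sfi1 lie at the lower right, with a fold percentile of at most 5.96.

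At the low end by pileup stood Trib1, Zdhhc5, Adgre5, Gfra2 and Col18a1. Trib1, which encodes a pseudokinase, had pileups of 5, 8, 9 and 9 and a median percentile of 3.72. The widest spread between lists was at Hps3, with pileups of 5 and 13 with neomycin and 25 and 10 without, a span of 94.6 percentiles. Ino80, Akirin2, Eaf2 with Golgb1, and Arl5a followed. The spans were chosen for their width, and pileups of lists of unknown depth are given without a comparison between groups.

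Agreement on exact bases was partial. A base covered in all 4 libraries at the same time was present in 1250 of the 2262 regions (55.3%), and the rest were joined through overlaps between pairs of libraries. In such regions the peak of 1 library may lie more than 1 kb from the gene end. Among 3513 gene-end regions in 3 lists, 1218 lacked a peak of neomycin replicate 1 and 1408 one of neomycin replicate 2. An untreated peak was missing in 144 for replicate 1 and in 743 for replicate 2. When only peaks with a −log10 q-value of at least 10 were merged, no gene-end region was in all 4 lists. Only 637 and 267 neomycin peaks reached that value, against 6156 and 2171 untreated ones.

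The question of whether neomycin changed the length of the mark was put to the summed peak length in each region. The rule used the presence and overlap of peaks and not the treatment, but length comes from the same peak starts and ends and is not independent of it. Peaks in constant regions covered a median of 111 and 189 bp in neomycin replicates 1 and 2, and 485 and 435 bp in untreated replicates 1 and 2. The shortest peak in each list was 48, 110, 187 and 234 bp in that order, and 254, 238, 38 and 122 constant regions lay at that lowest length. Before centring, the median log2 length differed by −1.62, neomycin minus untreated, over the 2796 regions in all 4 lists. The part of the different shortest lengths in this shift was not tested. Lengths were therefore set relative to the median of their library before the limma comparison (2 against 2, Benjamini-Hochberg over the 2796 regions).

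No constant region passed an adjusted p of 0.05, against 0% of the 2796 regions, and the lowest adjusted p was 0.303. At an unadjusted p under 0.05 there were 228 of 2262 (107 longer and 121 shorter with neomycin), 10.1% against 10.3% of all 2796. The median standard error of the log2 change was 0.51. Without neomycin replicate 1 there were 85 longer and 87 shorter calls, and without neomycin replicate 2 there were 149 and 188. Each rests on a lone neomycin library that is assumed to vary like the untreated pair.

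The lowest p-values, which are not calls, were as follows. Trip11, which encodes a Golgi protein, had 436 and 573 bp with neomycin and 231 and 428 bp without, a centred log2 change of 2.33 ± 0.53 (SE). Klf12 had 418 and 573 bp against 229 and 425 bp. The region shared by Ccdc189 and the ubiquitin ligase gene Rnf40 had 323 and 432 bp against 324 and 234 bp. Hjurp and Saraf completed that direction. These regions were thus of about equal or greater length with neomycin while the typical region was shorter.

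In the other direction, Tshz3 and Gm36722 shared a region with 48 and 120 bp with neomycin and 1581 and 963 bp without, a change of −2.36 ± 0.50. Tshz3 encodes a zinc finger homeodomain factor. Arid2, a subunit gene of a SWI/SNF remodelling complex, had 92 and 138 bp against 1800 and 1564 bp, in a region shared with Gm38469. Paip1, Anp32b and Prmt6 followed, with 81 and 110 bp against 1310 and 1248 bp at Paip1. The 48 bp at Tshz3 and the 110 bp at Paip1 are the shortest peak lengths of neomycin replicates 1 and 2, so these values lie at the lowest possible length. The adjusted p was 0.303 for each of these regions. With the longest peak of a region in place of the sum, Klf12 (log2 change 2.26) and the region of Ccdc189 and Rnf40 (2.28) were called longer, with an adjusted p of 0.0172 for both in limma.

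Wnt and supporting cell genes showed no call. Among Wnt members the centred log2 change ran from −0.98 at Lgr4 to 1.13 at Fzd4. Lgr5 had 0.18 ± 0.57, Sox9 −0.14 ± 0.53, Prox1 0.19 ± 0.49 and Notch1 −0.77 ± 0.51. Each of these 4 values is smaller than 2 standard errors, and each changed sign under at least 1 other setting. Without centring all 4 were negative, at −1.48 for Lgr5, −1.80 for Sox9, −1.48 for Prox1 and −2.44 for Notch1.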

How the data were processed

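Each H3K4me3 library has a peak list of its own, so calling was done library by library. CASAVA 1.4, Bowtie2, MACS2 and deepTools, with the build mm10, are named per the submitters' processing notes; what each did and its parameters were not given in the sources used here. For each peak, per the file headers, the deposited lists give the length in bp, summit, pileup signal, fold enrichment (a ratio), −log10 p-value and −log10 q-value. These scores are the authors' values and served for ranks and filters inside 1 list; pileups of single regions are printed for each library as descriptions. The lists give no read totals, so depth is unknown.

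Peaks were merged at 1 bp of overlap and assigned to RefSeq genes of GRCm38.p6, the assembly of mm10, within 1 kb of a start or end. Exons were not used here. The promoter table supplied strand and sequence, and 80.2% of the constant genes matched it. Pileup percentiles used average ranks for ties. Summed peak length was compared with limma 3.58.1 in R 4.3.3, with groups taken from the labels, and the rest in Python 3.11.15 with numpy 2.4.6, pandas 2.3.3 and matplotlib 3.10.9. Region building and limma were tested on simulated data.

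The members and lists were chosen with earlier results of these data known. Genes were named by a rule: the 10 highest and 5 lowest pileup ranks, up to 3 per family or list, 5 per direction of lowest p, 21 key genes, the 5 widest spans and the 5 longest. Other members of the Wnt, supporting cell, Sox, Klf, stress, p53 and chromatin lists were named after their values were seen. Alternatives changed merging, window, peaks used, libraries, score, length measure and centring.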

Additional observations from a re-analysis of the deposited data

How the results depend on the processing

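The count of 2262 regions at 2560 genes was within 1.5 times under merging up to 500 bp, windows of 500 bp and 2.5 kb, equal list lengths and annotated starts alone. It fell to 1250 regions and 1432 genes where a base had to be covered in all 4 lists, and to 0 and 0 when peaks needed a −log10 q of 10 or more, where lists and lengths could not be computed. Leaving out each library in turn gave 2109 to 3641 regions and 2380 to 4029 genes, with 3473 and 3641 regions without neomycin replicates 1 and 2. The share of the Wnt list over that of all genes was 3.52, and 2.35 to 2.59 with a library left out; the supporting cell list had 2.89, and 2.38 to 2.70. Ranking by fold enrichment moved the median percentiles to 58.1, 62.1, 71.2 and 66.5, and ranking by −log10 q to 53, 57.9, 71.7 and 61.5, in the order neomycin replicates 1 and 2 and untreated replicates 1 and 2. With the median of a region's peaks, untreated replicate 2 moved to 59.5.

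For covered length, no centring gave 866 shorter calls, following the shift of −1.62 in the median of all regions, and the longest peak gave 2 longer calls. Leaving out a library gave 0 to 149 longer and 0 to 188 shorter calls, with 0 where an untreated library was left out. With the replicate block there were 0 calls in either direction (lowest adjusted p 0.0609, limma). The deviations of same-numbered libraries from their group means had a correlation of −0.026 after centring. A shift of a whole library does not enter a correlation over regions, with or without centring. The value thus shows little shared pattern across regions between same-numbered libraries, and does not settle whether they were paired. Of the 10 regions of lowest p, none changed sign. Among the key genes, Lgr5 (−1.48), Prox1 (−1.48), the shorter Jag1 region (−1.41) and Fgfr3 (−0.99) reversed without centring, and Prox1 (−0.18), Notch1 (0.10) and the longer Jag1 region (0.25) with merging up to 500 bp. The longer Jag1 region reversed with the span of peaks (0.56) and Cdkn1b with the longest peak (0.50). With each library left out in turn, values ran through 0 from −0.57 to 0.93 at Lgr5, from −0.67 to 0.39 at Sox9, from −1.27 to 0.10 at Cdkn1b, from −0.35 to 0.86 at the shorter Jag1 region and from −1.15 to 0.082 at the longer one. The cause of these moves was not tested. Unknown depth, 2 libraries a group, the lowest length in each list and the uncertain mark of the untreated lists limit every comparison.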
